A study of Mus musculus with 9 samples.

Results

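Nfix and Mef2a are genes of muscle transcription factors whose transcripts also gave circular RNAs (circRNAs, rings formed by splicing an exon's end back onto a start that lies before it). Every circRNA that the deposited table assigns to either gene by its Ensembl gene identifier was taken, from the most abundant to those with a few reads. This gave 38 circRNAs, 25 of Nfix and 13 of Mef2a, among 37751 circRNAs of 6943 host genes. The cells were C2C12, an established mouse myoblast line from skeletal muscle. Proliferating C2C12 cells at 70-80% confluence in medium with fetal bovine serum are called day 0, and cells taken 3 and 6 days after a switch to medium with 2% horse serum are called day 3 and day 6. Each time point had 3 libraries, 9 in all, and no genotype or other agent differed between them. C2C12 is a single immortal line, so the libraries show this line and not muscle tissue, and a bulk culture at day 3 or day 6 may hold fused and unfused cells. In such bulk samples fewer cells of a type and less RNA per cell cannot be told apart. Whether a day's libraries are separate cultures is not in the labels. The p-values therefore refer to these libraries only, whose spread is possibly technical.

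NFIX belongs to the nuclear factor I family, whose members bind DNA as dimers through a domain near the start of the protein. It is known in muscle for the switch from embryonic to fetal myogenesis and for a role in regeneration. MEF2A belongs to the myocyte enhancer factor family. MEF2 proteins bind DNA through MADS and MEF2 domains at their start and activate muscle genes together with the MyoD family. A circRNA holds only part of its host transcript, has no cap and no tail, and is usually more stable than the linear RNA.

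The junctions below carry the results, since reads across them are what was counted. Each shows the last 30 bases before the back-splice in lower case and the first 30 bases after it in capitals, 5′ to 3′, from the GENCODE M21 transcripts of GRCm38. The first 3 are the Nfix circRNAs with the most reads, and the last is the dominant Mef2a circRNA.
Nfix exon 2: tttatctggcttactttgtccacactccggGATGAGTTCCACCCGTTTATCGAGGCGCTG
Nfix exons 3 to 8: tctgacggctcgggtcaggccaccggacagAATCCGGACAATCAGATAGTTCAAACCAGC
Nfix exons 2 to 8: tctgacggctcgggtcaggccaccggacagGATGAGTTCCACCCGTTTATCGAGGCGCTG
Mef2a 132-base start: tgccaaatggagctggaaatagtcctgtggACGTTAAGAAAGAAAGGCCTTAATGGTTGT
The exon 2 to 8 junction joins the capitals of the Nfix exon 2 junction to the lower-case end of the exon 3 to 8 junction. Exon numbers follow the annotated transcripts Nfix-204 and Mef2a-204. Reads across a junction do not show which exons lie inside a circle, so spliced lengths are those of the annotated exons between its ends.

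Nfix was the host with the most back-splice reads in all 9 libraries, and its exon 2 circle was the most abundant single circRNA in all 9. Nfix circRNAs took 2.02% to 3.74% of all back-splice reads of a library. The gene lies on chr8:84699876-84800344 of GRCm38, on the minus strand. Its dominant circRNA closes exon 2 on itself (chr8:84771784-84772315, 532 bases, all coding) and is one of 1027 circRNAs, 2.72% of the table, with a circBase identifier. Exon 2 is known to encode most of the DNA-binding domain of NFI proteins. The exon 2 circle gave 67724 of 75654 Nfix reads (89.5%). Mef2a lies on chr7:67231163-67372858, also on the minus strand, and gave 3005 reads. Its dominant circRNA spans exons 5 to 7 of Mef2a-204 (chr7:67264865-67268400, 412 bases spliced) and gave 2473 of them (82.3%). These exons lie behind those for the MADS and MEF2 domains. The dominant Mef2a circRNA ranked between 315 and 429 among circRNAs at day 0, between 90 and 197 at day 3 and between 70 and 93 at day 6.

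**Figure D1:**
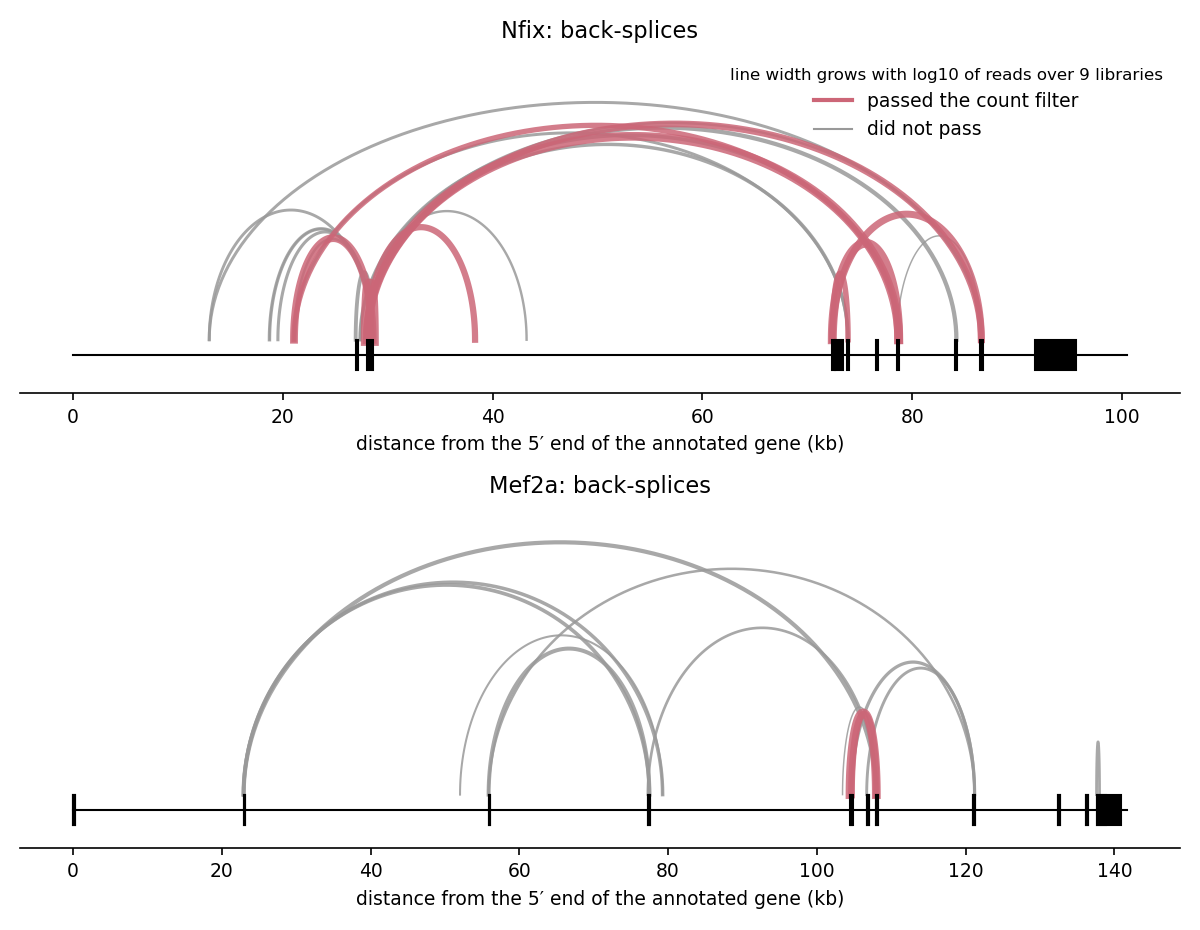
Back-splices of Nfix (top, 25 circRNAs) and Mef2a (bottom, 13 circRNAs) drawn as arcs over annotated exons (boxes), with distance from the 5′ end of the annotated gene in kb on the x axis. Line width grows with the log10 of reads over 9 libraries, and coloured arcs mark the 9 and 2 circRNAs that passed the count filter. Nfix arcs gather on exon 2, and the coloured Mef2a arcs on exons 5 to 7.

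Circles of both genes shared ends. In Nfix, 8 circRNAs began at the start of exon 2 and held 93.5% of the gene's reads. The start of exon 3 opened circles with 4.73% of the reads. At the other side, 91.0% of Nfix reads closed at the end of exon 2, 7.21% at the end of exon 8 and 1.15% at the end of exon 10. In Mef2a, 5 circRNAs closed at the end of exon 7, with 95.9% of its reads. Annotated exon edges held both ends of 8 Nfix circRNAs with 97.9% of the gene's reads and of 10 Mef2a circRNAs with 99.4%. The other Nfix circRNAs had 1 such end (15) or none (2), and the other Mef2a circRNAs 1 (2) or none (1).

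The introns around the dominant circles were long in the annotation. For each circRNA they were read from the first GENCODE M21 basic transcript, by identifier, with exons on both sides of the circle, which 28698 circRNAs had. Nfix exon 2 had 27682 bp before it and 43816 bp after it, at percentiles 87.8 and 96.6 of these circRNAs. In Nfix-204 the intron before exon 2 has only 1038 bp, so the first value depends on the transcript chosen. The introns beside the dominant Mef2a circle have 26974 and 13020 bp, at percentiles 87.3 and 83.8. The medians over those circRNAs were 4936 bp before and 3465.5 bp after. In spliced length both circles were below the median of 585 bases.

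The start codons inside the circles were read around the junction as a property of the sequence alone. The Nfix exon 2 circle has a length that is not a multiple of 3, and its longest frame from an ATG ran 657 bases (219 codons), past a full turn. In the exon 2 to 8 circle of 1227 bases, a multiple of 3, a frame from an ATG met no stop codon in 3 turns. The dominant Mef2a circle had a longest frame of 456 bases, longer than the circle. In the Nfix exon 3 to 8 circle of 695 bases the longest frame, 468 bases, was shorter than the circle. Translation was not measured.

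Nfix circRNA reads were higher at day 3 and day 6 than at day 0. Levels are in CPM, back-splice reads scaled to a common library total with TMM factors, and a host's level is the sum over its circRNAs. In the day 0 libraries Nfix stood at 18932, 23086 and 21678 CPM. At day 3 it stood at 38660, 26736 and 36530 CPM, and at day 6 at 26783, 37885 and 25592 CPM. Every day 3 and day 6 library lay above every day 0 library, while days 3 and 6 overlapped. The means were 21230 ± 2113, 33980 ± 6359 and 30090 ± 6779 CPM (SD, n = 3 each), or 1.6 times day 0 at day 3 and 1.42 times at day 6. With edgeR's quasi-likelihood test over 4115 hosts, Nfix rose by 0.68 ± 0.13 on the log2 scale at day 3 (SE, adjusted p = 6.31e-04). At day 6 it rose by 0.50 ± 0.13 (edgeR, adjusted p = 0.0126). These SEs are smaller than those from its own libraries, 0.19 and 0.20. For hosts, edgeR takes most of the spread from the trend over all hosts (28.6 prior against 6 residual degrees of freedom). The day 6 call was lost in 6 of 11 other fits, DESeq2 among them (0.43, adjusted p = 0.108). They include a fit of another quantity, the sum without the exon 2 circle (0.31, edgeR, adjusted p = 0.31). Without day 6 replicate 2 the call was lost too (0.31, edgeR, adjusted p = 0.0979).

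Mef2a circRNA reads rose more. Mef2a stood at 337, 352 and 594 CPM at day 0. It reached 1371, 938 and 1504 CPM at day 3, and 1639, 1482 and 1744 CPM at day 6. No day 0 library reached the lowest library of day 3 or day 6. The means were 427.5 ± 144.6, 1271 ± 295.5 and 1621 ± 131.9 CPM (SD, n = 3 each), 2.97 and 3.79 times day 0 at days 3 and 6. In edgeR Mef2a rose by 1.57 ± 0.26 on the log2 scale at day 3 (adjusted p = 1.14e-04) and by 1.92 ± 0.27 at day 6 (adjusted p = 2.78e-06). From its own libraries the SE was 0.34 at day 3 and 0.27 at day 6. Both Mef2a calls held with each single library left out. However, in 2 of these 9 host fits edgeR's prior degrees of freedom were infinite, so that the spread of the gene itself had no weight there. In the others they ran from 36.3 to 5200, above the 28.6 with all libraries, so that its own spread had less weight.

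Of all 4115 hosts tested, 3.96% passed at day 3 against day 0, 3.04% being higher. At day 6 against day 0, 5.66% passed and 3.86% were higher, so Nfix and Mef2a were among a minority of hosts called in each comparison. Both comparisons use the same day 0 libraries, so they are not independent. The median log2 fold change over all hosts was -0.02 at day 3 and -0.13 at day 6. Between day 3 and day 6 neither gene passed in edgeR: Nfix differed by -0.18 ± 0.13 (adjusted p = 0.956) and Mef2a by 0.35 ± 0.26 (adjusted p = 0.936), where 0.0729% of hosts passed. Exact two-sided permutation tests over the libraries gave p = 0.1 for each gene in both comparisons with day 0, the smallest p that 3 against 3 libraries allow.

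**Figure D2:**
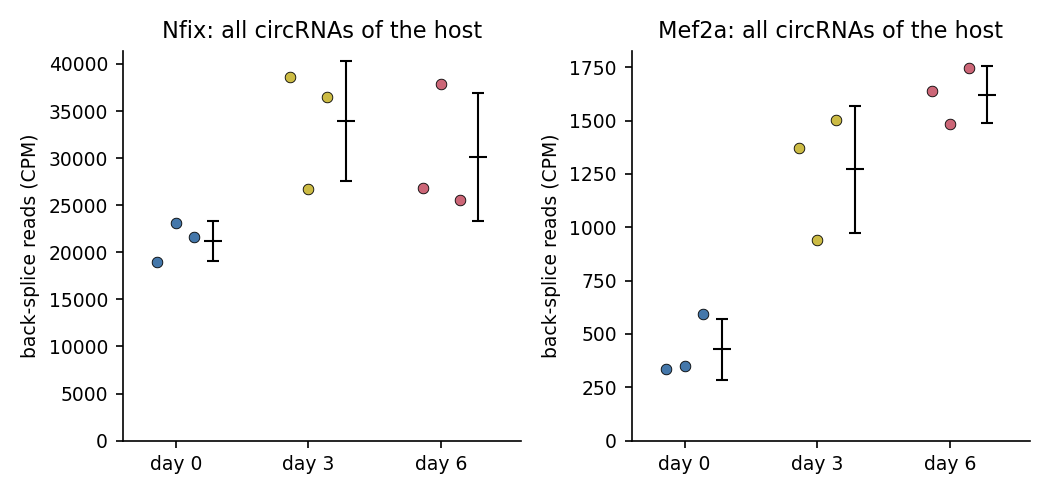
Back-splice reads in CPM (y axis) summed over all circRNAs of Nfix (left) and Mef2a (right) in each library (points) at days 0, 3 and 6, with mean ± SD of 3 libraries beside them. Day 0 libraries lie below all others for both genes. Nfix is at 25592 to 38660 CPM after day 0, and Mef2a at 938 to 1744 CPM.

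The ratio of the 2 genes moved too. A back-splice read comes from the junction whatever the length of the circle, so reads were not divided by length. At day 0 there were 17.8, 15.2 and 27.4 Mef2a reads per 1000 Nfix reads. The ratio was 35.5, 35.1 and 41.2 at day 3 and 61.2, 39.1 and 68.1 at day 6. It was higher in every library of days 3 and 6 than in any of day 0, with exact permutation p = 0.1 for each, the smallest possible. The ratio was chosen after the levels had been seen. Across the 9 libraries, the 2 host levels on a log2(CPM + 1) scale had Pearson's r = 0.743 and Spearman's rho = 0.567, given as a description, as the libraries share their day.

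The exon 2 circle makes up 85.9% to 91.3% of the Nfix host reads in each library, so its levels and those of the host are largely the same measurement. Its reads were 5613, 5261 and 5159 at day 0, then 10944, 6612 and 11311 at day 3, and 4992, 8099 and 9733 at day 6. In CPM the groups stood at 19450 ± 1668, 30490 ± 6406 and 26110 ± 5854 (SD, n = 3 each), and no library of day 3 or day 6 fell into the day 0 range. In edgeR, over 8153 circRNAs tested, it rose by 0.65 ± 0.09 on the log2 scale at day 3 (adjusted p = 2.61e-06) and by 0.42 ± 0.09 at day 6 (adjusted p = 0.00313). These SEs are smaller than those from its own libraries, 0.20 and 0.19, because edgeR takes most of its spread from the trend over all circRNAs (50.3 prior against 6 residual degrees of freedom). DESeq2 passed neither comparison (0.49, adjusted p = 0.106, and 0.37, adjusted p = 0.247), and edgeR on only the libraries of the days compared did not either (adjusted p = 0.144 and 0.221).

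The dominant Mef2a circle, with the 132-base start, had 114, 83 and 118 reads at day 0. It had 344, 196 and 425 reads at day 3, and 303, 273 and 617 at day 6. Its levels were 381.9 ± 78.1, 1012 ± 290 and 1310 ± 182 CPM (SD, n = 3 each), and the day 0 libraries did not overlap with the others. In edgeR it rose by 1.41 ± 0.30 on the log2 scale at day 3 (adjusted p = 0.0023) and by 1.78 ± 0.30 at day 6 (adjusted p = 4.19e-05). A fit of only the libraries of days 0 and 3 gave 1.39 with an adjusted p of 0.0982.

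Of the circRNAs that passed the filter on low counts, 1 of 9 of Nfix and 1 of 2 of Mef2a rose in each comparison with day 0, and these are the dominant ones. Of all 8153 circRNAs tested, 1.58% passed at day 3 (1.31% higher) and 1.99% at day 6 (1.47% higher). Between days 3 and 6, 0 of the 11 passed in edgeR, against 0.0613% of all (2 of the 11 had an unadjusted p under 0.05), and 0 passed in DESeq2. The median log2 fold change over all circRNAs tested was 0.12 at day 3 and 0.01 at day 6 against day 0.

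**Figure D3:**
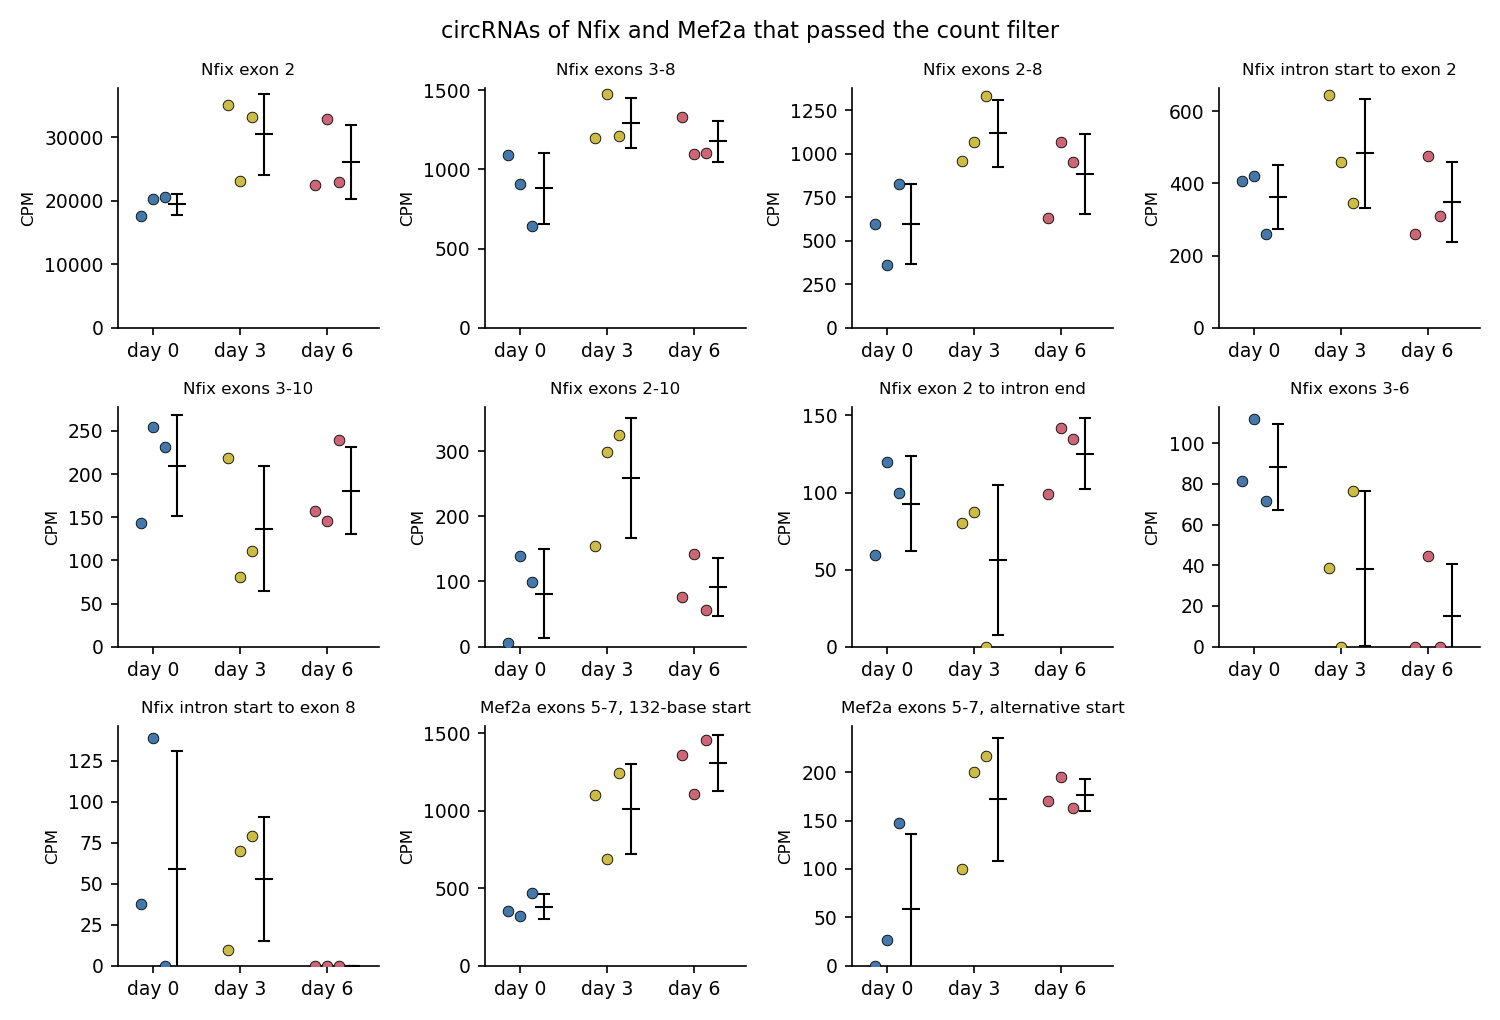
Level in CPM (y axis, scaled for each panel) of the 11 circRNAs of Nfix and Mef2a that passed the count filter, in each library (points) with mean ± SD of 3 libraries, at days 0, 3 and 6. Lower error bars end at the axis where they would pass below 0. The Nfix exon 2 circle is at 17530 to 35131 CPM, and no other Nfix panel exceeds 1476 CPM.

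Among the other Nfix circles, the multi-exon ones that close at exon 8 came next. Exons 3 to 8 (chr8:84721643-84727967, 695 bases spliced) gave 349, 236 and 161 reads at day 0, 373, 421 and 413 at day 3, and 296, 271 and 465 at day 6. Its log2 fold changes were 0.56 ± 0.26 at day 3 and 0.42 ± 0.26 at day 6 (edgeR, adjusted p = 0.422 and 0.415). Exons 2 to 8 (chr8:84721643-84772315) gave 191, 94 and 207 reads at day 0, 298, 304 and 454 at day 3, and 140, 263 and 402 at day 6. In CPM every day 3 library of it lay above every day 0 library, while day 6 overlapped day 0. Its log2 fold changes were 0.91 ± 0.31 and 0.57 ± 0.31 (edgeR, adjusted p = 0.188 and 0.354). Without day 0 replicate 3, the highest day 0 library, the day 3 difference passed (1.24, edgeR, adjusted p = 0.0272). In that fit edgeR's prior degrees of freedom were infinite, so the circle's own spread had no weight and the call says little.

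Circles that close at exon 10 were rarer. Exons 3 to 10 gave 46, 66 and 58 reads at day 0, 68, 23 and 38 at day 3, and 35, 36 and 101 at day 6, with log2 fold changes of -0.61 ± 0.70 and -0.21 ± 0.69 (edgeR, adjusted p = 1 for both). Exons 2 to 10 gave 2, 36 and 25 reads at day 0, then 48, 85 and 111 at day 3, and 17, 35 and 24 at day 6. All its day 3 libraries were above those of the other days in CPM, and the log2 fold change at day 3 was 1.67 ± 0.86 (edgeR, adjusted p = 0.422). It did not pass between day 6 and day 3 either (-1.50 ± 0.85, edgeR, adjusted p = 0.664). Exons 3 to 6 gave 26, 29 and 18 reads at day 0, 12, 0 and 26 at day 3, and 0, 11 and 0 at day 6, and did not pass (-2.55 ± 2.10 at day 6, edgeR, adjusted p = 0.682).

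A start at position 84779275, called the intron start here after the deposited type of its circRNAs, was shared by 4 Nfix circRNAs with 1.56% of the gene's reads, 1.99%, 1.59% and 1.21% at days 0, 3 and 6. No annotated GENCODE M21 exon begins there. It lies 6960 bp upstream of exon 2, beyond the first exon of Nfix-204, and 807 bp downstream of a transcript start of Nfix in RefSeq. From it to the end of exon 2 there were 130, 109 and 65 reads at day 0, 201, 131 and 118 at day 3, and 58, 117 and 131 at day 6, listed in every library (log2 fold changes 0.42 ± 0.44 and -0.06 ± 0.44, edgeR, adjusted p = 0.975 and 1). From it to the end of exon 8 there were 12, 36 and 0 reads at day 0, 3, 20 and 27 at day 3, and 0 in each day 6 library. Set against a floor of 3 reads per library, the day 0 mean was at least 5.38-fold higher than day 6, or at least 1.72-fold without day 0 replicate 2 and 8.08-fold without day 0 replicate 3, but edgeR did not pass it (adjusted p = 0.319), while DESeq2 did (adjusted p = 0.0455). A circle from exon 2 to an end inside the next intron, at 84762018, gave 19, 31 and 25 reads at day 0, 25, 25 and 0 at day 3, and 22, 35 and 57 at day 6 (log2 fold change at day 6 0.43 ± 1.18, edgeR, adjusted p = 1).

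By the annotated exons between its ends, the second Mef2a circle differs from the dominant one in its first exon only. It closes at the same end of exon 7 and opens at an alternative exon in place of the 132-base exon. The alternative exon lies within the genomic span of the dominant circle, and junction reads do not show whether that circle holds it. MEF2 genes are known to carry a pair of mutually exclusive exons just behind the MEF2 domain. Of 12 annotated Mef2a transcripts, 5 hold the 132-base exon, 2 the alternative exon and 0 both. The 132-base exon is shown whole since its start opens the dominant circle.
Mef2a 132-base exon: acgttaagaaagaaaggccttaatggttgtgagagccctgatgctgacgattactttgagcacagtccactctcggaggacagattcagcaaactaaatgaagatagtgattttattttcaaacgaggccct

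Reads of the alternative start were 0, 7 and 37 at day 0, 31, 57 and 74 at day 3, and 38, 48 and 69 at day 6. In edgeR its log2 fold changes were 1.57 ± 0.94 at day 3 and 1.61 ± 0.94 at day 6, and did not pass (adjusted p = 0.451 and 0.376). The values rest on the day 0 libraries: without day 0 replicate 3 they were 3.70 and 3.75, and without day 0 replicate 1 they were 0.97 and 1.01. Its share of the reads of both starts was 0 of 114 reads, 7.78% and 23.9% in the day 0 libraries, where 0 of 114 allows a share of up to 2.63% by a limit of 3 counts and 3.26% by the 95% Wilson interval. The shares were 8.27%, 22.5% and 14.8% at day 3 and 11.1%, 15% and 10.1% at day 6. With the means at 10.6% ± 12.2, 15.2% ± 7.12 and 12.1% ± 2.59 (SD, n = 3 each), the days overlapped. By exact permutation test p was 0.7 between days 0 and 3, 0.8 between days 0 and 6 and 0.7 between days 3 and 6. The libraries of day 0 differed from each other by more than their 95% Wilson intervals, which were 3.82% to 15.2% in replicate 2 and 17.8% to 31.2% in replicate 3 and cover counting error only. The 132-base start had more reads than the alternative start in all 9 libraries.

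**Figure D4:**
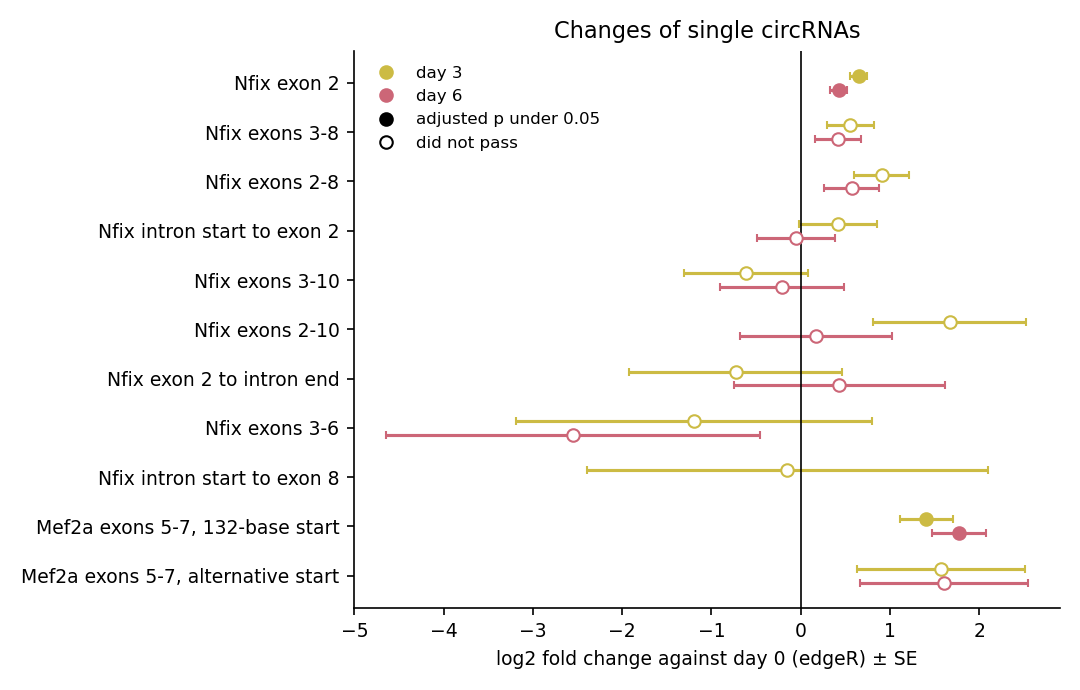
Log2 fold change against day 0 with its SE (x axis, edgeR) of the 11 tested circRNAs of Nfix and Mef2a (y axis) at day 3 and day 6, filled where the adjusted p was under 0.05. The filled points are those of the Nfix exon 2 circle (0.65 and 0.42) and of the Mef2a circle with the 132-base start (1.41 and 1.78). The Nfix circle from the intron start to exon 8 has no day 6 point because it had 0 reads there.

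The rest were thinly covered. The 16 Nfix circRNAs that did not pass the filter held 219 reads in all (0.289% of the gene's reads), 3 to 39 each, with no more than 20 in a library. Of these, 4 were listed only at day 0, 9 had no reads at day 0 and 3 were listed on both sides. Over all 29598 circRNAs that did not pass, 31.5% were listed only in the 3 day 0 libraries and 57.7% only in the 6 later ones, so nothing is read from these counts. The 11 Mef2a circRNAs that did not pass held 171 reads (5.69%), 3 to 36 each, and 31 at most in a library. Of these, 1 was listed only at day 0 and 10 had no reads there. The Mef2a circRNA with the widest genomic span reached from exon 2 to exon 7 and gave 11 reads in 1 day 3 library and 25 in 1 day 6 library. In all, 10 Nfix and 8 Mef2a circRNAs were listed in 1 library only, and 6 and 1 in all 9.

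The dominant circle's share of its host reads was compared between days with 3 against 3 libraries, a design whose smallest exact p is 0.1, so no difference could have passed. For Nfix the share was 88.7% ± 1.0, 89.2% ± 2.86 and 90.0% ± 1.18 at days 0, 3 and 6 (SD, n = 3 each). For Mef2a it was 89.0% ± 13.0, 78.7% ± 5.34 and 83.4% ± 5.12, and in the day 0 libraries it ran from 74.7% (replicate 3) to all 114 reads (replicate 1). The Mef2a share differed by -10.3 points at day 3 from day 0, and by -17.4 to -4.77 with a library left out. Exact permutation tests of the 3 pairs of days gave p = 0.8, 0.2 and 0.9 for Nfix and p = 0.3, 0.6 and 0.4 for Mef2a, and 0.8 to 0.9 after adjustment over the 6 tests. The Nfix reads outside the exon 2 circle were also higher at day 3, at 3367 to 3757 CPM against 2272 to 2539 CPM at day 0 (log2 fold change 0.57, edgeR, adjusted p = 0.0456). At day 6 they stood at 2792 to 3301 CPM (0.31, adjusted p = 0.31), without overlap with day 0. Mef2a reads outside its dominant circle stood at 0 to 150.5 CPM at day 0 and 182.6 to 316.0 CPM later, and did not pass in edgeR (2.14 and 2.18, adjusted p = 0.183 and 0.129).

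The related genes gave far fewer reads than Nfix. Mef2d, however, stood above Mef2a at day 0 (means of 674.8 and 427.5 CPM) and below it at days 3 and 6. Of the other NFI genes, Nfib had 10 circRNAs, Nfic 6 and Nfia 0. Of the other MEF2 genes, Mef2d had 10, Mef2c 3 and Mef2b 0. Nfib stood at 131.3 ± 77.6, 304.4 ± 28.2 and 230.3 ± 67.5 CPM at days 0, 3 and 6 (SD, n = 3 each; edgeR, adjusted p = 0.362 and 0.535 against day 0). Mef2d stood at 674.8 ± 152.5, 734.9 ± 311.3 and 1194 ± 180.3 CPM (adjusted p = 1 and 0.0993). Nfic stood at 0 to 58.1 CPM over the libraries (adjusted p = 0.876 and 0.946), and Mef2c was listed in 1 day 3 and 1 day 6 library and was not tested. In each comparison 0 of the 3 tested relatives passed in edgeR or DESeq2 (1 of 3 at an unadjusted p under 0.05 with each tool), and whether their changes differ from those of Nfix and Mef2a was not tested.

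Among 30 myogenic transcription factors and partners, 18 were listed as hosts and 14 tested, and 2 rose in both comparisons with day 0, beside 3.04% and 3.86% of all hosts. The list's median log2 fold changes were 0.45 and 0.19. Tcf4 and Tcf12, genes of E proteins that pair with the MyoD family, were the ones that rose. Tcf4 changed by 2.10 ± 0.52 at day 3 and 2.33 ± 0.53 at day 6 (edgeR, adjusted p = 0.0114 and 0.00344), and Tcf12 by 1.31 ± 0.37 and 1.43 ± 0.38 (adjusted p = 0.0371 and 0.0145). At day 3 the Tcf4 call was lost without day 0 replicate 3 (1.85, adjusted p = 0.0578) or day 3 replicate 3 (1.78, adjusted p = 0.124), and with only the 2 days compared (adjusted p = 0.0838). The Tcf12 call was lost at day 3 without day 0 replicate 1 (1.07), day 0 replicate 2 (1.26) or day 3 replicate 3 (1.10), and at day 6 without day 6 replicate 1 (0.98). It was also lost in 6 of 10 other ways of processing at day 3 (1.19 to 1.30, adjusted p = 0.0518 to 0.0942), and with only the 2 days compared at day 6 (1.40, adjusted p = 0.0974). Myod1, Myf5, Myog and Myf6, the MyoD family itself, had no circRNA listed.

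Of 29 regulators and coregulators of MEF2 and NFIX, 25 were listed and 17 tested, and 1 rose at day 3 (3.04% of all hosts) and 0 at day 6. Ncoa2, a nuclear receptor coactivator gene, passed at day 3 (1.21 ± 0.36, edgeR, adjusted p = 0.0487) and not at day 6 (0.78 ± 0.36, adjusted p = 0.256). Its call ended without any 1 of day 0 replicates 2 and 3, the 3 day 3 libraries and day 6 replicate 3 (1.09 to 1.27), and in 6 of 10 other ways of processing (1.07 to 1.23, adjusted p = 0.0536 to 0.105). The medians of the list were -0.08 and 0.20. Histone deacetylase genes Hdac4, Hdac7 and Hdac9, whose proteins repress MEF2, were tested and did not pass. At day 6 the lowest adjusted p of the list was that of Cabin1, which was lower but did not pass (-0.71 ± 0.23, edgeR, adjusted p = 0.0618).

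Markers moved with the days too. Of 15 skeletal muscle markers 12 were listed as circRNA hosts, and their summed level was 244 to 402 CPM at day 0, 9550 to 11000 at day 3 and 11200 to 15000 at day 6. Ttn, the titin gene, and Ryr1, the gene of the sarcoplasmic calcium release channel, held most of that sum. Of 9 tested, 3 rose in both comparisons with day 0, beside 3.04% and 3.86% of all hosts. They were Ttn (7.64 and 7.93 on the log2 scale, edgeR, adjusted p = 6.33e-17 and 2.59e-17), Ryr1 (3.36 and 3.97, adjusted p = 4.80e-11 and 7.30e-13) and Tnnt1 (5.84 and 6.41, adjusted p = 5.09e-05 and 8.09e-06). Des did not pass and stood at 51.6 ± 59.8, 49.1 ± 53.7 and 22.6 ± 19.6 CPM (SD, n = 3 each). Myh8, Mybpc1 and Actn2 had no circRNA listed, and Neb, Cacna1s, Tnnt3, Myh3, Myom1, Dmd, Ckm and Acta1 were at 0 in all day 0 libraries. Of 12 proliferation markers 11 were listed, with summed levels of 4570 to 5310, 732 to 1200 and 243 to 323 CPM, and Ccnb1 was not. Most of this was Spag5, a spindle gene, at 3265 ± 356, 707.6 ± 314.1 and 208.4 ± 43.2 CPM. Of 8 tested, Spag5 and Bub1b were lower at day 3 (edgeR, adjusted p = 3.09e-07 and 0.0458) and Spag5, Bub1b and Kif14 at day 6 (adjusted p = 2.11e-12, 4.73e-05 and 0.00179). Over all hosts, 3.96% passed in either direction at day 3 and 5.66% at day 6. The Bub1b call at day 3 (-2.34) was lost without day 0 replicate 2 (-2.29), day 0 replicate 3 (-2.27) or day 3 replicate 3 (-1.92). It passed in only 5 of 10 other ways of processing, and was lost with DESeq2 (adjusted p = 0.3) and limma-trend (adjusted p = 0.107) among others. Reserve cell markers (4 of 9 listed) summed to 236 to 449, 285 to 603 and 372 to 598 CPM. Adipocyte and osteoblast markers (2 of 11 listed, Pparg and Runx2) summed to 327 to 672, 490 to 869 and 380 to 634 CPM. The part of these changes in the rise of Nfix and Mef2a was not tested. Library totals were 208787 to 443955 back-splice reads.

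By pattern over the 9 libraries (Pearson's r of log2(CPM + 1)), the tested hosts most like Nfix were Kat6b (0.979), Nphp4 (0.959), Sox5 (0.907), Sco1 (0.902) and Slc22a4 (0.898). Kat6b, a histone acetyltransferase gene, stood at 732.5 ± 48.1, 1606 ± 334 and 1257 ± 352 CPM. Sox5, Sco1 and Slc22a4 were at 0 at day 0 and had at most 25.8 CPM on average later, so their likeness rests on few reads. Those most like Mef2a were Tnnt1 (0.985), Macf1 (0.976), Bbs9 (0.976), Atf6 (0.974) and Frmpd1 (0.974). Tnnt1, a slow troponin T gene of the muscle marker list, stood at 3.76 ± 6.51, 227.6 ± 76.9 and 340 ± 55.1 CPM, and Macf1, a cytoskeletal linker gene, at 321.3 ± 135.6, 1705 ± 301 and 2202 ± 425 CPM (SD, n = 3 each).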

How the data were processed

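The authors deposited raw whole-number counts of back-splice reads per circRNA and library. Per the submitters' processing notes, BWA and GRCm38.p4 (mm10) were used. Caller, filters and versions: not given in the sources used here. As the smallest count above 0 is 2, single reads are listed as 0. Per the labels' protocols, TRIzol total RNA had a bead clean-up and DNase treatment before an mRNA-seq kit. The table has no linear reads, so circular and linear RNA could not be compared. Reads are PCR copies without molecular identifiers, so intervals cover counting error only. Replicates of a day differed by more than sampling noise (chi-square per degree of freedom 11.7 to 14.6).

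Counts were tested per circRNA and summed per host with edgeR 4.0.16 (quasi-likelihood F-test, R 4.3.3) on all 9 libraries. TMM factors were put on column totals, filterByExpr used a minimum count of 5 and a minimum total of 15, and Benjamini-Hochberg values had a threshold of 0.05. The filter kept 4115 hosts (98.3% of host reads) and 8153 circRNAs (86.2%). The SE is approximate, the size of the log2 fold change over the root of its F statistic. Factors were estimated for hosts and circRNAs separately, so their CPM scales differ slightly. For shares, log2 host levels and the ratio of Mef2a to Nfix reads, two-sided exact permutation tests were run in scipy 1.17.1. DESeq2 1.42.0, other factors and filters, a replicate block and leaving out libraries were alternatives, and limma-trend (limma 3.58.1) was added after seeing the data. Exons and sequences come from GENCODE M21. At offset 0, 86.5% of circRNA starts and 86.6% of ends in the table lay at its exon edges.

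The members and gene lists were chosen with earlier results of these data known. All circRNAs of both genes are accounted for. Those past the filter are given by library and the others by counts. The hosts most alike are the 5 with the highest Pearson's r. Of the lists, markers included, the text names all members past the threshold against day 0 and all NFI and MEF2 relatives. Other list members that did not pass or had no circRNA listed, such as Hdac4, Des and Myod1, were named by choice and not by a rule. The sequence of 1 alternative Mef2a exon is not reported here.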

Additional observations from a re-analysis of the deposited data

How the results depend on the processing

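The Mef2a host calls held under every scaling, filter, tool and left-out library, except that the sums without the dominant circle did not pass (2.14 and 2.18). The Nfix host call held in all of them at day 3. At day 6 it was lost with library totals alone (0.37, adjusted p = 0.0811), DESeq2 (0.43), a minimum count of 10 (0.48), only the 2 days compared (0.48), circRNAs listed in at least 2 libraries (0.43) and without the dominant circle (0.31), and its values with a library left out ran from 0.31 to 0.59. The Nfix exon 2 circle was lost with DESeq2 (0.49 and 0.37), with only the 2 days compared (0.63 and 0.42) and, at day 6, with a minimum count of 10 (0.41) and limma-trend (0.41). The Mef2a circle with the 132-base start was lost at day 3 with only the 2 days compared (1.39). Between days 6 and 3 the exon 2 circle passed with no filter (-0.23) and in 5 of 9 fits without a library, where values ran from -0.41 to -0.10. In all 9 of those circRNA fits edgeR's prior degrees of freedom were infinite and the filter kept 11138 to 11851 circRNAs, so the spread of the circle itself had no weight and these calls say little. The same was so in 2 of 9 host fits, and in the others the prior degrees of freedom were 36.3 to 5200 (28.6 with all libraries).

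Hosts past the threshold numbered 163 (days 0 and 3), 233 (days 0 and 6) and 3 (days 3 and 6). In the same order they were 286, 450 and 19 with DESeq2. Between days 3 and 6 there were 6 with no filter and 1 with only those days or with limma-trend. Only the 2 days compared gave 139 between days 0 and 6. With a library left out they ran from 131 to 195, 185 to 263 and 2 to 8. The circRNA counts of 129, 162 and 5 became 262, 449 and 20 with DESeq2 and 30, 70 and 0 with only the 2 days compared. Between days 3 and 6 they were 9 with no filter and 0 with limma-trend (434 of 8153 at an unadjusted p under 0.05, and 293 of 5944 with only those 2 days), and the left-out ranges were 98 to 166, 143 to 197 and 5 to 8. Causes were not tested.

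Values near 0, and that of Nfic at day 6, changed sign. The Nfix circle from the intron start to exon 8 (-0.15 at day 3 against day 0) gave 0.086 with a replicate block, 0.44 with limma-trend and -0.70 to 1.47 without a library. The circle of exons 2 to 10 at day 6 ran from -0.40 to 0.80, the one from the intron start to exon 2 from -0.35 to 0.12, and the alternative Mef2a start between days 6 and 3 from -0.23 to 0.25. Mef2d at day 3 gave -0.005 with library totals and -0.26 to 0.36 without a library. Nfic at day 6 (1.27 with all libraries) ran from -3.37 to 4.63. Its only reads at days 0 and 6 were in replicate 2 of each day. Between days 6 and 3 Tcf4 ran from -0.021 to 0.55 and Tcf12 from -0.34 to 0.37. The share of the exon 2 circle ran from -0.53 to 2.15 points at day 3 against day 0 and from -0.88 to 1.79 between days 6 and 3. With the replicate number as a block, Nfix host changes were 0.69 and 0.50 and those of Mef2a 1.59 and 1.96, with all 4 calls kept, while Ncoa2 was lost at day 3 (1.23, adjusted p = 0.0536) and Bub1b passed between days 6 and 3 (-2.91). The replicate numbers gave no sign of pairing the libraries. Deviations of same-numbered libraries correlated between -0.033 and 0.01, and 0 of 9 libraries correlated best with their own number in both other days. The count filter left out 27 of 38 circRNAs (71.1%, against 78.4% of all circRNAs).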
